A study of Glycyrrhiza uralensis with 48 samples.

Results

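In the licorice genome annotation, 4717 pairs of genes lie across each other on opposite strands. A pair was taken where 2 genes on 1 scaffold shared at least 1 base of their start-to-end ranges, lay on different strands and each had exactly 1 annotated mRNA. The pairs hold 8696 of the 34445 annotated genes. In all, 5154 pairs of genes overlapped, and 437 of them were left out because a partner had several mRNAs. No overlapping pair lay on the same strand. Most of these genes, 8012, belonged to a single pair, 633 belonged to 2 pairs, 48 to 3 and 3 to 4, so the pairs are not fully independent of each other.

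Genes of this kind are known as cis-natural antisense pairs, because the transcript of each partner can be complementary to part of the other. In plants such pairs have been studied for double-stranded RNA and small RNAs that form between partners, and for transcription from one strand that interferes with the other. In Arabidopsis thaliana SRO5 and P5CDH, an enzyme gene of proline breakdown, became known as a pair whose overlap gives rise to small RNAs under salt. The licorice files pair no identifier with a gene name or function, so the genes below are given by identifier and position only.

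RNA of Glycyrrhiza uralensis (licorice, a legume of dry and saline land whose roots are used as a medicine and sweetener) was measured in 48 libraries of whole seedlings divided into underground and aerial parts. Seedlings were 45 days old, raised from 75 seeds per pot in 1900 g of sterilised desert sand. Each part was sampled under salt and drought together (salt-drought), 75 mM NaCl (salt), 35 to 45% of saturation moisture (drought) and distilled water (control), each with silicate (2 mM silicon as potassium silicate) and without it, which makes 16 groups of 3 libraries. The labels do not say whether the libraries of a group come from separate pots, and p-values reflect only how far these libraries differ, which may be technical in part. The values are FPKM, fragment numbers divided by transcript length and sequencing depth, so levels can be compared between partners. Because each library is a bulk sample, fewer cells of a type and less RNA per cell cannot be told apart.

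The sources used here do not give whether fragments were counted by strand. Where exons of both partners overlap, a fragment could then be counted for either of them, and FPKM of partners need not be separate measurements. The library totals ran from 618800 to 682429 FPKM. With no gene names, no known tissue marker could be looked up, so part markers were chosen from these data. A marker had at least 50 FPKM in all 24 libraries of its part. Its mean in the controls of the other part was at most 1% of its mean in its own part. That gave 33 genes for underground and 46 for aerial parts, of which 10 and 14 belong to the pairs. The median underground marker stood in library 3 of aerial drought at 14.5% of its mean over all underground libraries. It stood in library 2 of aerial salt-drought with silicate at 14.7%, and in the other 22 aerial libraries at 2.42% or lower. The median aerial marker reached 4.73% of its mean over all aerial libraries in library 2 of underground salt-drought. It reached 3.27% in library 3 of underground salt-drought with silicate. Some listed zeros may be failed estimates. A case was a single library at 0 where the remaining replicates were each at 10 FPKM or more. Over all genes there were 173 such cases in 89 genes, so they were not confined to the pairs. Genes of these pairs had 37 such cases, in 13 genes. In 11 of these 37 cases the partner's value was above its values in both other libraries.

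Nested pairs, with 1 gene wholly inside the range of the other, were the commonest arrangement (2332 pairs, 49.4%). Convergent pairs, overlapping at their 3' ends, numbered 1316 (27.9%), and divergent pairs, overlapping at their 5' ends, numbered 1069 (22.7%). The overlap ran from 2 to 24267 bases with a median of 846, and it was shortest in divergent pairs (median 443) and longer in convergent (899) and nested (1137) pairs. Exons of both partners overlapped in 4477 pairs, by a median of 237 bases, while in 240 pairs the overlap touched an intron of at least 1 partner at every base. Coding sequence lay over coding sequence in 3966 pairs (84.1%). Untranslated regions (UTRs) alone made up the exon overlap in 5 pairs.

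The partners were unequal gene models. The shorter partner had a median of 367 exon bases and the longer 1672. A UTR was annotated for 352 of the shorter partners and for 2832 of the longer ones, and both partners had one in 260 pairs. Across the pairs, a median of 73.1% of the shorter partner's exon bases lay over exons of the longer. In the 3464 pairs in which both genes are spliced, no partners had an identical intron. The gene model drawings show each arrangement, with small coding genes against longer neighbours.

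**Figure D1:**
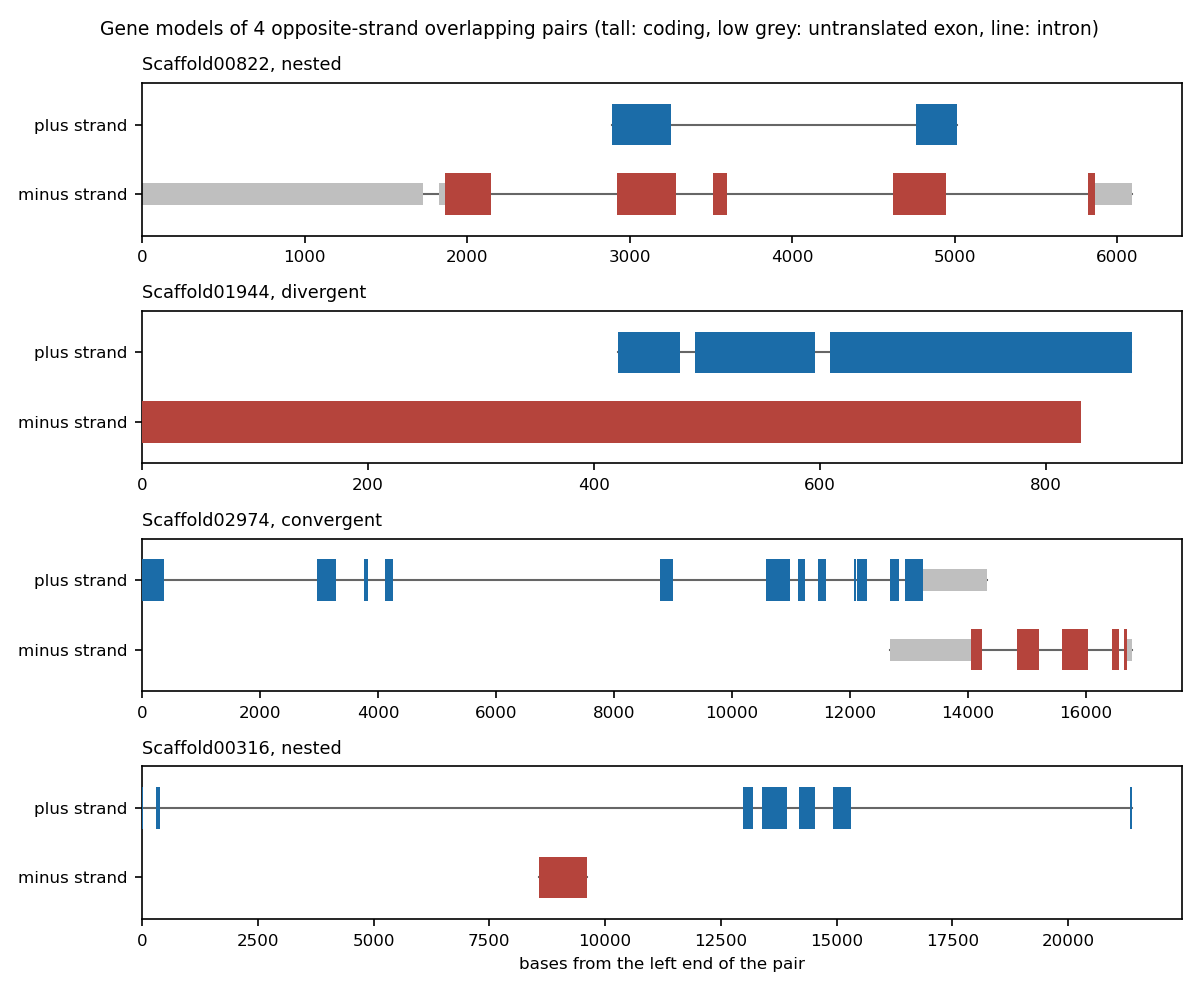
Gene models of 4 overlapping pairs, drawn to scale in bases from the left end of each pair; tall boxes are coding exons, low grey boxes untranslated exon, lines introns, with the plus strand above the minus strand. The Scaffold00822 partner on the plus strand lies inside its minus-strand partner with 519 exon bases in common, the Scaffold01944 partners share 383, the Scaffold02974 partners share 1461 at their 3' ends, and the Scaffold00316 minus-strand gene sits wholly in an intron, with 0 shared.

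Usually only 1 partner of a pair passed the filter on low levels, though both were above 0 in at least 1 library in 3582 pairs. A gene was tested where it had at least 1 FPKM in at least 3 libraries. That held for 5052 of the 8696 pair genes (58.1%), against 19338 of the 25749 other annotated genes (75.1%). All 48 libraries were at 0 for 1109 pair genes (12.8%) and for 1572 other genes (6.11%), and the median of the mean level was 1.00 FPKM in pair genes, against 4.39 FPKM in other genes. Both partners passed in 1205 pairs (25.5%), 1 partner in 3152 (66.8%) and neither in 360. Among the 3152 pairs with 1 partner past the filter, that partner was the longer model in 3025 (96.0%). Its mean level had a median of 7.83 FPKM, against 0.00964 FPKM for the other, which was listed at 0 in all libraries in 997 pairs. The partner past the filter had an annotated UTR in 2072 of these pairs and the other partner in 69.

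The remaining results concern the 1205 pairs (449 nested, 446 convergent and 310 divergent; 2320 genes) with both partners past the filter. They are not all overlapping pairs, and the filter itself selects for pairs that are higher somewhere. For comparison, 2144 pairs of adjacent genes within 1000 bases of each other, without overlap and on any strands, passed the same filter. In the overlapping pairs the longer partner had the higher mean level in 946 pairs (78.5%). The lower partner made up a median of 16.5% of the summed FPKM. Its level over 16 groups differed from its partner's by a median of 1.75 on the log2(FPKM + 1) scale, against 1.40 in neighbours within 1000 bases.

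The pair with the highest lower partner, by the median over all libraries, was Glyur001944s00035547 on the plus strand (Scaffold01944, 534 to 989) and Glyur001944s00035546 on the minus strand (113 to 943). It is divergent, and both genes were high underground. The plus-strand partner had 2828, 2069 and 3213 FPKM in the underground control libraries, against 0.687, 0 and 0.281 FPKM in the aerial control libraries. Its minus-strand partner had 32681, 23522 and 25727 FPKM in the underground controls, against 7.17, 1.44 and 2.66 FPKM in the aerial controls. Underground and aerial controls did not overlap in either gene. The difference was 11.01 ± 0.91 (SE, limma adjusted p = 1.23e-12) on the log2(FPKM + 1) scale for the plus-strand gene and 12.66 ± 1.16 (SE, limma adjusted p = 1.51e-11) for the minus-strand gene. In the aerial library 3 of drought, in which underground markers stood high, the partners were at 187 and 2625 FPKM, and in library 2 of aerial salt-drought with silicate at 213 and 3657 FPKM, above all aerial controls. Both genes meet the rule for underground markers themselves, so these levels are no observation apart from the marker levels. How much underground material those 2 libraries hold was not tested.

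The other 2 pairs with the highest lower partner were aerial. The nested pair Glyur000822s00038922 on the plus strand (Scaffold00822, 48760 to 50881) and Glyur000822s00038921 on the minus strand (45867 to 51959) came next. Its plus-strand partner had 4.25, 0.725 and 0.330 FPKM in underground controls, against 985, 1566 and 1459.9 FPKM in aerial controls, and its minus-strand partner had 6.58, 1.47 and 0.766 FPKM in underground controls, against 1129, 1715 and 1645 FPKM in aerial controls. Both were lower underground by similar amounts, -9.16 ± 0.77 (SE, limma adjusted p = 1.76e-12) for the plus-strand and -8.84 ± 0.85 (SE, limma adjusted p = 4.58e-11) for the minus-strand gene, and the change of their difference was not called, at -0.32 ± 0.16 (SE, limma adjusted p = 0.0732). The partners also moved together among the underground libraries. In underground salt-drought the plus-strand partner had 2.27, 52.5 and 2.73 FPKM and the minus-strand partner 3.27, 82.0 and 3.89 FPKM. Both were highest in library 2, the underground library with the highest aerial markers. Both genes meet the rule for aerial markers themselves, so this is no observation apart from the marker levels.

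The third pair was Glyur000180s00014049 on the plus strand (Scaffold00180, 43755 to 44807) and Glyur000180s00014048 on the minus strand (41597 to 43813). It is divergent and shares 59 bases of exon, 20.3% of its shorter partner. The plus-strand gene ranged from 12.7 to 59.7 FPKM over the 24 underground libraries and from 541 to 1126 FPKM over the 24 aerial libraries. The minus-strand gene ranged from 16.3 to 74.5 FPKM underground and from 598 to 1535 FPKM in aerial parts. Neither partner's ranges overlapped between the parts.

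In the 1205 overlapping pairs past the filter on low values, partners mostly had parallel levels across the 16 groups. Pearson's r between partners over the 16 group means of log2(FPKM + 1) had a median of 0.76 in these pairs, against 0.26 in neighbours within 1000 bases. With 1 library of each replicate number per group the median was 0.66, 0.66 and 0.64 in the overlapping pairs (SD 0.0135), against 0.22, 0.20 and 0.20 in the neighbours (SD 0.00894). The correlation was at least 0.5 in 824 overlapping pairs (68.4%), against 39.5% of neighbours, and it was -0.5 or lower in 102 overlapping pairs (8.46%), against 23.1% of neighbours. These values depend on the filter. With no filter, in the 3582 overlapping pairs whose partners were both above 0 in at least 1 library, the median r was 0.44, against 0.23 in neighbours, and 1629 pairs (45.5%) reached 0.5, against 34.8% of neighbours. The partners of a pair come from the same libraries and, where exons overlap, may share fragments, so r is a description and carries no p.

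**Figure D2:**
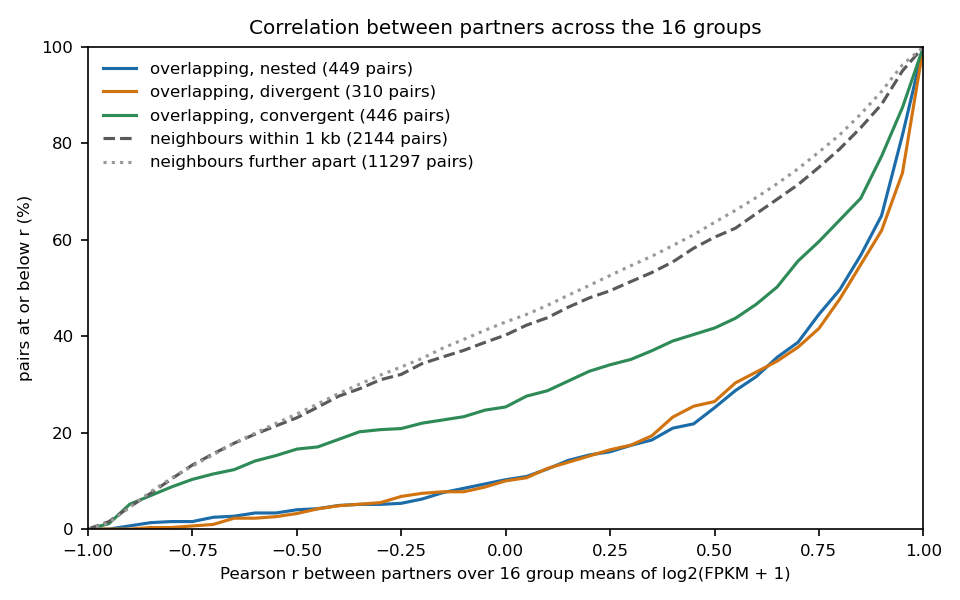
Cumulative share of pairs (%) by Pearson's r between partners over the 16 group means. Curves are for nested, convergent and divergent overlapping pairs, for neighbours within 1000 bases and for adjacent genes further apart (11297 pairs). An r of 0.2 or lower occurred in 50.5% of adjacent genes further apart and in 47.9% of neighbours within 1000 bases (median 0.26). It occurred in 32.7% of convergent, 15.4% of nested and 15.2% of divergent pairs. Among overlapping pairs the convergent curve (median 0.65) lies left of the nested (0.81) and divergent (0.82) curves.

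The median r differed with the arrangement of the pair. Divergent and nested pairs had a median r of 0.82 and 0.81, and convergent pairs 0.65. A correlation of -0.5 or lower occurred in 74 convergent pairs (16.6%), in 18 nested pairs (4.01%) and in 10 divergent pairs (3.23%). Neighbours without overlap differed by orientation too, with medians of 0.39 for divergent, 0.12 for convergent and 0.40 for same-strand neighbours within 1000 bases. These differences between sets were not tested.

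Partner levels were also correlated within each plant part. Within the 8 underground groups the median r of the overlapping pairs was 0.50 (SD 0.0193 over replicate sets), and within the 8 aerial groups it was 0.50 (SD 0.0295). Neighbours within 1000 bases had 0.17 underground and 0.14 in aerial parts. With no filter on low values the overlapping pairs had 0.30 in both parts, against 0.14 underground and 0.13 in aerial parts in the neighbours. Between libraries of 1 group, after the group means were removed, the median r over 48 libraries was 0.32 in overlapping pairs, against 0.11 in neighbours.

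The median correlation was higher in pairs with more of the shorter partner overlapped. In the 102 pairs with no exon overlap, where 1 gene lies over introns or outside the exons of the other, the median r over 16 groups was 0.53 (SD 0.0155 over replicate sets). In the 186 pairs with up to 25% of the shorter partner's exon bases overlapped it was 0.54 (SD 0.0150). It was 0.67 in the 223 pairs with 25 to 50%, 0.81 in the 280 pairs with 50 to 75% and 0.84 in the 414 pairs with 75 to 100% overlapped. The correlation within groups ran from 0.22 and 0.18 in the first 2 classes to 0.28, 0.39 and 0.36 in the others. Pairs with no exon in common were mostly nested, and their values differed by arrangement. The 79 nested ones had a median r of 0.58 across groups and 0.26 within groups. The 19 convergent ones had 0.48 across groups (SD 0.213 over replicate sets) and 0.021 within groups, against 0.12 and 0.063 in convergent neighbours within 1000 bases.

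**Figure D3:**
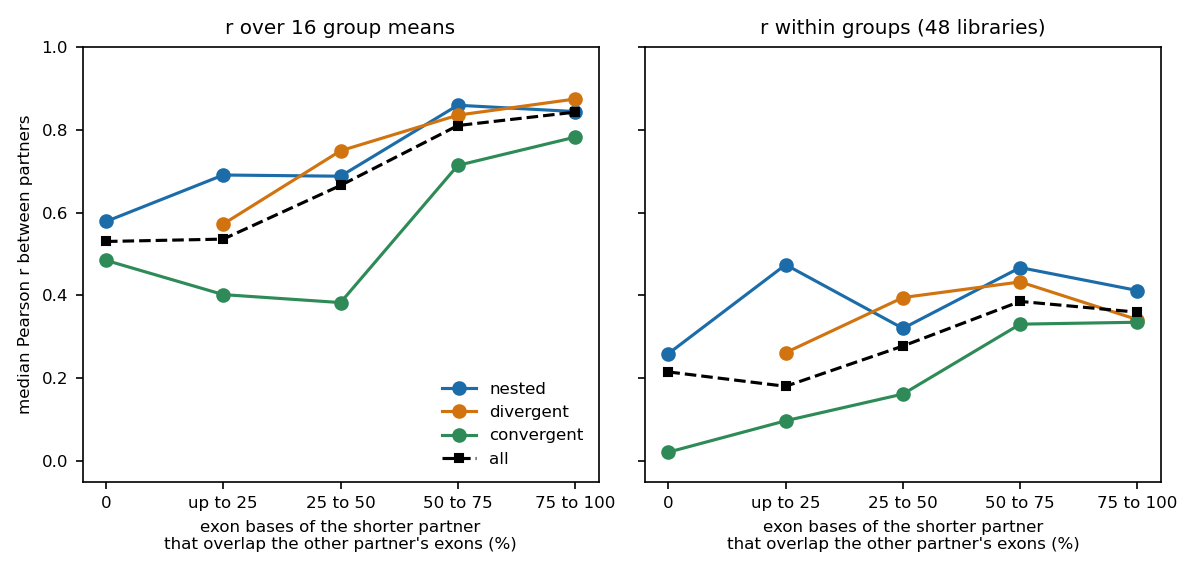
Median Pearson's r between partners across 16 group means (left panel) and within groups (right panel) by the share of the shorter partner's exon bases (%) that overlap exons of the other, for nested, convergent and divergent pairs; the divergent class with no exon overlap (4 pairs) is not drawn. Across groups, convergent pairs stood at 0.48 in the class with no exon overlap (19 pairs), at 0.40 and 0.38 in the classes up to 25% and 25 to 50%, and at 0.71 and 0.78 above.

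The median r also differed with the annotated UTRs. Where both partners had an annotated UTR (217 pairs) the median r was 0.49 across groups and 0.15 within groups, where 1 partner had one (552 pairs) it was 0.72 and 0.30, and where neither had one (436 pairs) it was 0.87 and 0.43. The overlapped share of the shorter partner differed along with this, at medians of 48.9%, 57.6% and 71.4%. Its part in the difference was not tested.

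The order of the partners was mostly fixed. The same partner had the higher group mean in all 16 groups in 919 of the 1205 overlapping pairs (76.3%), against 61.1% of neighbours within 1000 bases. With no filter on low values it was 3021 of 3582 pairs (84.3%), against 64.3% of neighbours. In 286 pairs the higher partner changed between groups, and in 33 of the 482 pairs whose partners both reached a group mean of 5 FPKM it changed by at least 1 log2 unit in each direction.

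Among pairs of which both partners spanned at least 1 log2 unit over the groups, the highest correlations belonged to the pair on Scaffold00180 described above and to Glyur003114s00040696 on the plus strand (Scaffold03114, 5969 to 7316) and Glyur003114s00040695 on the minus strand (3119 to 7581), a nested pair. The plus-strand partner of the Scaffold03114 pair had 6.14, 4.20 and 3.82 FPKM in underground controls, against 210.2, 185 and 203 FPKM in aerial controls. Its partner had 14.3, 10.1 and 10.6 FPKM in underground controls, against 543, 479 and 589 FPKM in aerial controls. Both were low underground and high in aerial parts, by -5.15 ± 0.43 (SE, limma adjusted p = 2.03e-12) and -5.42 ± 0.51 (SE, limma adjusted p = 3.24e-11) log2 units. Within the aerial parts, its highest groups were also the same. Salt-drought libraries had 316, 368 and 483 FPKM of the plus-strand gene and 734, 832 and 1238 FPKM of the minus-strand gene, the highest group means of both.

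The lowest correlation was -0.98, in the convergent pair Glyur002974s00035226 on the plus strand (Scaffold02974, 12022 to 26343) and Glyur002974s00035228 on the minus strand (24696 to 28807), which shares 1461 bases of exon, none of them coding in both genes. Both partners have annotated UTRs. The plus-strand gene had 3.17, 2.29 and 2.76 FPKM in underground controls, against 34.5, 30.5 and 34.4 FPKM in aerial controls. The minus-strand gene had 199, 247 and 170.0 FPKM in underground controls, against 42.0, 53.9 and 41.7 FPKM in aerial controls. The plus-strand gene was thus the lower partner by a wide margin underground, while in the aerial controls the partners lay close together. The differences were -3.19 ± 0.23 (SE, limma adjusted p = 6.65e-14) and 2.13 ± 0.22 (SE, limma adjusted p = 2.02e-10), and over all 24 libraries of each part neither gene's ranges overlapped. The overlap covers 55.3% of the exon bases of the shorter model. Convergent pairs with 50 to 75% overlapped had a median r of 0.71, and pairs of any arrangement with UTRs on both partners had 0.49.

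The second lowest, -0.97, was the convergent pair Glyur000752s00022795 on the plus strand (Scaffold00752, 50387 to 53500) and Glyur000752s00022796 on the minus strand (51811 to 63242), whose exons do not overlap. Levels of the plus-strand gene were 4.45, 3.12 and 5.32 FPKM in underground controls, against 0.205, 0.228 and 0.471 FPKM in aerial controls. Levels of the minus-strand gene were 1.75, 2.74 and 1.46 FPKM in underground controls, against 31.2, 19.8 and 36.4 FPKM in aerial controls. Each gene's levels of the 2 parts were apart in these libraries, in opposite directions, by 2.01 ± 0.29 (SE, limma adjusted p = 2.33e-07) and -3.32 ± 0.24 (SE, limma adjusted p = 7.07e-14). Within the 8 aerial groups r was -0.09 and within the 8 underground groups -0.78.

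The largest change of balance between groups with a change of the higher partner occurred in the convergent pair Glyur000100s00008378 on the plus strand (Scaffold00100, 186718 to 191126) and Glyur000100s00008379 on the minus strand (189481 to 192768). Its partners share 1646 bases of exon. On the plus strand, the gene had lowest, median and highest levels of 0.176, 0.328 and 0.959 FPKM in underground libraries, against 7.46, 11.3 and 14.3 FPKM in aerial libraries. On the minus strand, the gene had 51.5, 76.8 and 169.6 FPKM underground, against 2.07, 10.9 and 22.5 FPKM in aerial parts. Underground the minus-strand gene was higher in every library, while aerial libraries were mixed. In aerial salt-drought the plus-strand gene was higher in all 3 libraries, with 11.7, 14.2 and 9.88 FPKM, against 3.33, 6.16 and 2.07 FPKM of its partner. The second such pair was the Scaffold00184 pair described with drought.

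**Figure D4:**
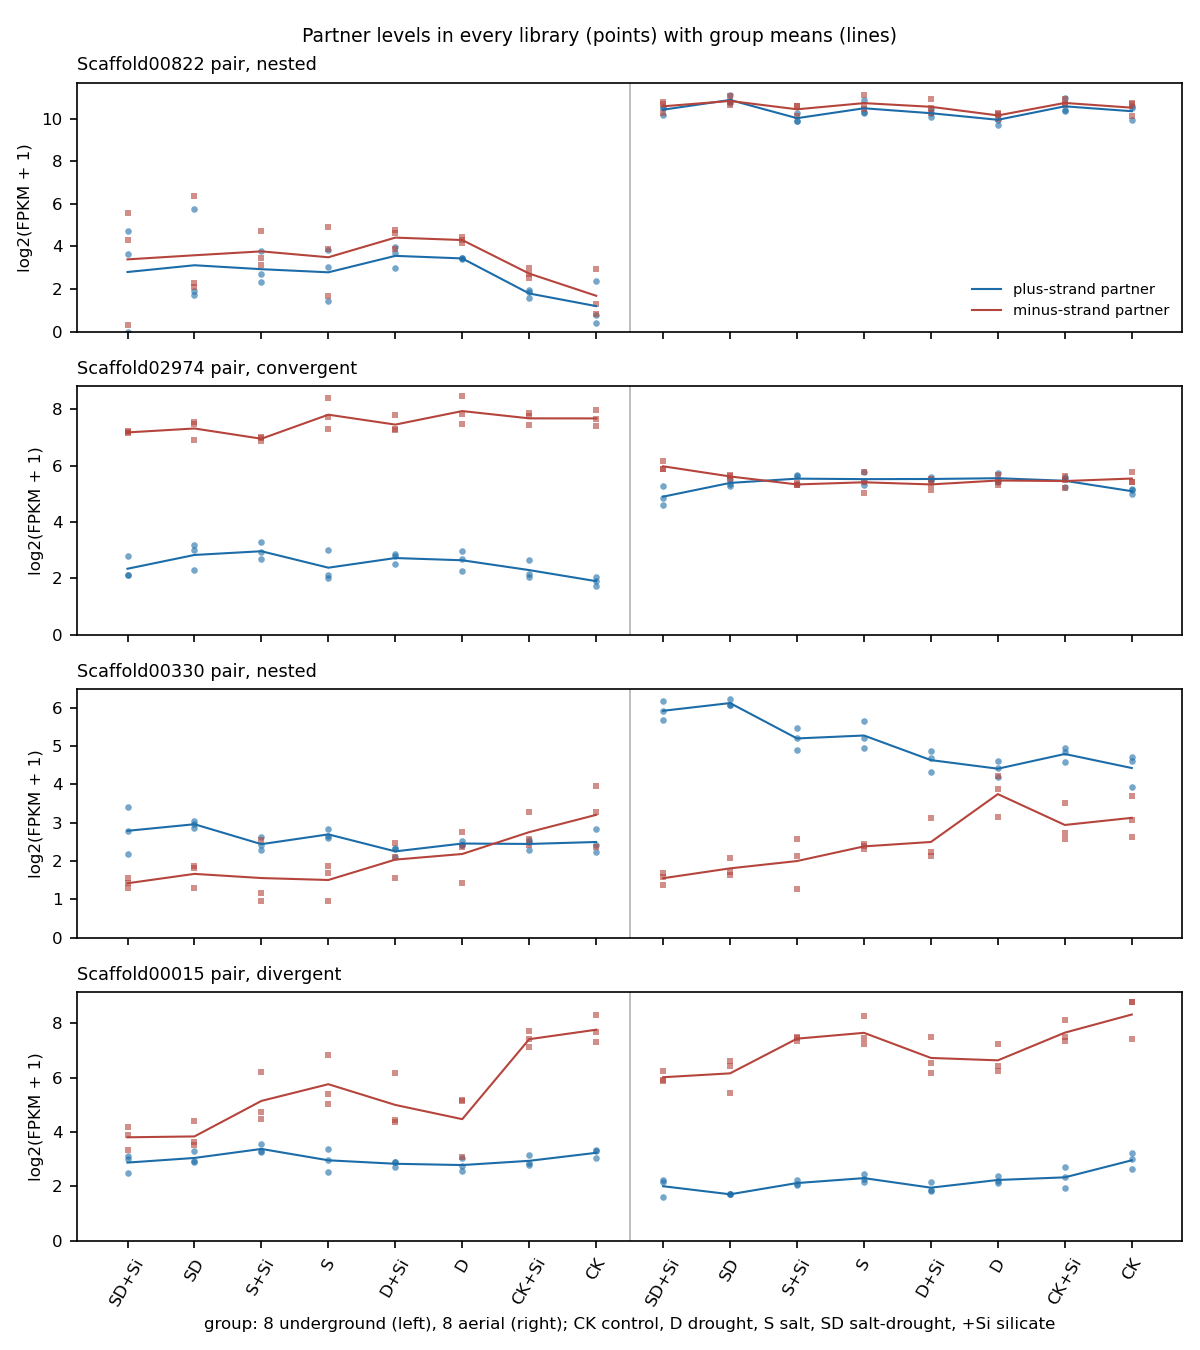
Levels of both partners, log2(FPKM + 1), in every library (points) with group means (lines), for 4 pairs, with the 8 underground groups on the left and the 8 aerial groups on the right. The Scaffold00822 partners run side by side in all groups, the Scaffold02974 partners separate underground and meet in aerial parts, the Scaffold00330 partners move apart under aerial salt-drought, and of the Scaffold00015 partners the minus-strand gene falls under underground drought and salt-drought while the plus-strand gene has underground group means near 3.

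Balance below is the log2(FPKM + 1) of the plus-strand partner minus that of the minus-strand partner. A change of balance says that the partners changed by different amounts, and it was tested with limma over all overlapping and adjacent pairs of the annotation, with Benjamini-Hochberg adjustment and calls at an adjusted p under 0.05. Changes of single genes were tested in the same way over all genes. The pairs named have both partners at a group mean of at least 5 FPKM in some group, and superlatives refer to such pairs. The largest balance change of a comparison was taken among called pairs whose balances did not overlap between the 2 groups. Each stress is set against the same 3 control libraries of its part, so the comparisons within a part are not independent.

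Where both partners differed between plant parts, they mostly did so in the same direction. Of the 5052 pair genes tested, 3148 (62.3%) differed between underground and aerial controls, against 58.7% of all genes, 1577 of them higher underground (31.2%, against 31.1% of all genes) and 1571 lower (31.1%, against 27.5%). Both partners were called in the same direction in 464 of the 1205 pairs (38.5%, against 24.3% of all overlapping and adjacent pairs). They were called in opposite directions in 61 (5.06%, against 16.7%). A single partner was called in 365 of the 1205 pairs, against 910 of the 2144 neighbouring pairs within 1000 bases. The balance was called in 514 pairs (42.7%), against 63.6% of all overlapping and adjacent pairs and 59.5% of neighbours within 1000 bases. It was called in 95 divergent pairs (30.6%), 183 nested pairs (40.8%) and 236 convergent pairs (52.9%). The sets were not tested against each other.

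**Figure D5:**
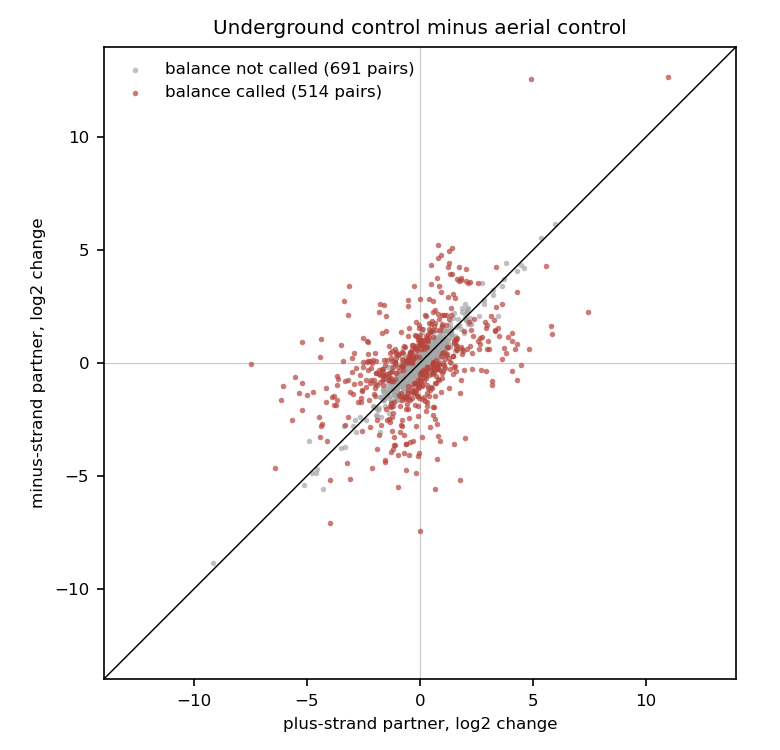
Log2 change between underground and aerial controls of the plus-strand partner (x axis) and of the minus-strand partner (y axis) in the 1205 pairs, underground minus aerial; pairs with a called balance (514) and without (691) are coloured apart. Most points lie along the rising diagonal, with partners that changed together, and 61 pairs were called in opposite directions.

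The largest opposite change between parts was found in the convergent pair Glyur000129s00012437 on the plus strand (Scaffold00129, 59102 to 61788) and Glyur000129s00012438 on the minus strand (61492 to 63707). The plus-strand gene had 1.39, 2.06 and 1.68 FPKM in underground controls, against 21.1, 21.6 and 25.1 FPKM in aerial controls. The minus-strand gene had 19.3, 23.1 and 5.95 FPKM underground, against 0.517, 0.832 and 0 FPKM in aerial controls. Neither gene's values overlapped, and the higher partner changed with the part. The changes were -3.13 ± 0.24 (SE, limma adjusted p = 1.83e-13) and 3.42 ± 0.58 (SE, limma adjusted p = 4.15e-06), and the balance changed by -6.55 ± 0.53 (SE, limma adjusted p = 5.7e-13).

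The largest called change of balance between parts lay in a divergent pair, Glyur001944s00035556 on the plus strand (Scaffold01944, 39333 to 39727) and Glyur001944s00035555 on the minus strand (38750 to 39574). Levels of the minus-strand gene were 20100.5, 12306 and 25806 FPKM in underground controls, against 3.45, 0.844 and 2.41 FPKM in aerial controls. Its plus-strand partner had 13.6, 2.38 and 552 FPKM in underground controls and was listed at 0 in all 3 aerial controls, so no fold is given. Its underground level varied widely between libraries of 1 group. The balance was called (limma adjusted p = 0.000216).

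Under aerial salt-drought, partners that were both called again mostly moved in the same direction. Of 4526 pair genes tested in aerial parts, 1428 (31.6%, against 29.3% of all genes) were called, 574 higher (12.7%, against 13% of all genes) and 854 lower (18.9%, against 16.2%) than control. Both partners were called in the same direction in 142 of 961 pairs (14.8%, against 6.47% of all overlapping and adjacent pairs). They were called in opposite directions in 20 (2.08%, against 4.1%). A single partner was called in 297 of the 961 pairs, against 678 of 1787 neighbouring pairs within 1000 bases. The balance changed in 233 pairs (24.2%), against 30.6% of all overlapping and adjacent pairs. Without library 3 of aerial salt-drought 153 balances were called.

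The pair with the largest balance change under aerial salt-drought was also the one with the largest opposite change of its partners. It is the nested pair Glyur000330s00019510 on the plus strand (Scaffold00330, 33513 to 38427) and Glyur000330s00019511 on the minus strand (37404 to 37907), in which the single exon of the minus-strand gene lies wholly (100%) over exons of the plus-strand gene. On the plus strand, the gene had 73.4, 66.6 and 65.4 FPKM in salt-drought, against 14.3, 23.5 and 25.3 FPKM in control. On the minus strand, the gene had 2.31, 2.09 and 3.20 FPKM in salt-drought, against 12.0, 7.33 and 5.14 FPKM in control. The plus-strand gene rose and the minus-strand gene fell, with no overlap between the groups in either. The changes were 1.69 ± 0.21 (SE, limma adjusted p = 1.8e-05) and -1.32 ± 0.35 (SE, limma adjusted p = 0.00882), and the balance changed by 3.01 ± 0.44 (SE, limma adjusted p = 7.13e-05). Without library 1 of control, the fall of the minus-strand gene was -1.03 with a limma adjusted p = 0.0582. Across the 8 aerial groups r between the partners was -0.88.

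Aerial salt gave fewer calls. Of 4526 genes, 380 (8.40%, against 6.96% of all genes) were called, 146 higher (3.23%, against 2.99%) and 234 lower (5.17%, against 3.97%). Both partners moved in the same direction in 29 pairs (3.02%, against 0.742% of all overlapping and adjacent pairs) and in opposite directions in 0 (limma, against 0.164%; 9 pairs at an unadjusted p under 0.05). A changed balance was found in 51 of 961 pairs (5.31%), against 7.33%. These counts rested on few libraries: 215 genes and 20 balances were called without library 1 of salt, 170 and 26 without library 1 of control, and 230 and 31 without library 2 of control, while a fit of only the 2 groups called 43 genes and 5 balances.

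The largest balance change under salt, in both plant parts, belonged to the nested pair Glyur000098s00007984 on the plus strand (Scaffold00098, 104191 to 104840) and Glyur000098s00007983 on the minus strand (103495 to 117710), both of whose partners fell. In aerial parts the plus-strand gene had 0.306, 0.178 and 0.126 FPKM under salt, against 1.94, 2.29 and 1.98 FPKM in control, and the minus-strand gene 7.77, 2.74 and 5.69 FPKM under salt, against 77.7, 81.6 and 70.0 FPKM in control. Underground the plus-strand gene had 1.37, 1.65 and 0.984 FPKM under salt, against 13.3, 6.97 and 5.10 FPKM in control, and the minus-strand gene 22.2, 29.6 and 18.9 FPKM under salt, against 295, 412 and 367 FPKM in control. In every case the salt libraries lay below all control libraries. The balance changed by 2.33 ± 0.35 (SE, limma adjusted p = 0.000414) in aerial parts and by 1.94 ± 0.30 (SE, limma adjusted p = 0.000196) underground, and the minus-strand gene fell further on this scale. The plus-strand gene is low in aerial parts, where with log2(FPKM + 0.1) the balance changed by 1.04 (limma adjusted p = 0.183).

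Aerial drought called 176 of 4526 genes (3.89%, against 3.33% of all genes), 71 higher (1.57%, against 1.66%) and 105 lower (2.32%, against 1.66%). With libraries rescaled to a common median ratio, 52 were higher and 128 lower. Both partners were called in the same direction in 14 pairs (1.46%, against 0.25% of all overlapping and adjacent pairs) and in opposite directions in 0 (limma, against 0.0357%; 4 pairs at an unadjusted p under 0.05). The balance changed in 21 of 961 pairs (2.19%), against 3.96%. Leaving out any 1 library of the 2 groups lowered both counts, to at most 150 genes and 16 balances. Gene counts were 86 without library 1 of drought, 101 without library 2 of drought, 73 without library 2 of control and 108 without library 3 of control. Balance counts were 8 without library 2 of drought, 8 without library 2 of control and 13 without library 3 of control. A fit of only the 2 groups called 16 genes and 1 balance.

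The largest joint fall of partners under drought, and also under salt, in aerial parts belonged to the convergent pair Glyur002184s00035330 on the plus strand (Scaffold02184, 34349 to 39198) and Glyur002184s00035331 on the minus strand (38712 to 41483). The plus-strand gene had 0.867, 1.49 and 4.73 FPKM under drought and 2.40, 2.17 and 2.78 FPKM under salt, against 26.6, 17.4 and 11.9 FPKM in control. The minus-strand gene had 22.1, 28.6 and 30.5 FPKM under drought and 31.8, 23.1 and 34.1 FPKM under salt, against 200.0, 199 and 98.6 FPKM in control. All stressed libraries lay below all controls in both genes. Under drought the changes were -2.65 ± 0.49 (SE, limma adjusted p = 0.00544) and -2.51 ± 0.31 (SE, limma adjusted p = 0.000192), and under salt -2.44 ± 0.49 (SE, limma adjusted p = 0.00526) and -2.39 ± 0.31 (SE, limma adjusted p = 0.000118). The balance did not pass the test in either comparison (-0.13 under drought and -0.05 under salt). Fitted on the 2 groups alone, the fall of the plus-strand gene under drought had a limma adjusted p = 0.0899.

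The largest balance change under aerial drought was found in the convergent pair Glyur000184s00008170 on the plus strand (Scaffold00184, 37510 to 41353) and Glyur000184s00008171 on the minus strand (40909 to 43693). Levels of the plus-strand gene were 6.03, 5.65 and 5.05 FPKM in drought, against 0.696, 1.88 and 0.832 FPKM in control. Levels of the minus-strand gene were 30.3, 35.3 and 42.6 FPKM in drought, against 37.0, 65.7 and 60.8 FPKM in control. The plus-strand values did not overlap and the minus-strand values did. The balance changed by 2.21 ± 0.48 (SE, limma adjusted p = 0.014), while the single genes were not called, at 1.66 ± 0.47 (SE, limma adjusted p = 0.0595) and -0.55 ± 0.21 (SE, limma adjusted p = 0.158). The balance call was lost without library 1 of drought (limma adjusted p = 0.0557) or library 3 of control (limma adjusted p = 0.0547). Of this pair the plus-strand gene was the higher partner underground and the minus-strand gene in aerial parts, with lowest, median and highest levels of 4.64, 9.30 and 20.2 FPKM underground, against 0.696, 4.83 and 9.64 FPKM in aerial parts for the plus-strand gene, and 0.252, 0.918 and 4.17 FPKM underground, against 30.3, 58.8 and 105 FPKM in aerial parts for the minus-strand gene.

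Underground salt-drought called 1359 of 4706 pair genes (28.9%, against 27% of all genes), 802 higher (17.0%, against 17.1%) and 557 lower (11.8%, against 9.95%). This split depends on scaling: the median change of all genes was 0.11 log2 units, and with libraries rescaled to a common median ratio 556 were higher and 730 lower. Both partners were called in the same direction in 128 of 1013 pairs (12.6%, against 6.42% of all overlapping and adjacent pairs) and in opposite directions in 4 (0.395%, against 3.26%). A changed balance was found in 130 pairs (12.8%), against 26.7% of all overlapping and adjacent pairs and 23.0% of neighbours within 1000 bases. Without library 3 of underground salt-drought 85 balances were called.

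Underground, a divergent pair had the largest balance change under both salt-drought and drought. The pair is Glyur000015s00000796 on the plus strand (Scaffold00015, 278354 to 281876) and Glyur000015s00000795 on the minus strand (278341 to 278715), with 73.3% of the minus-strand gene's single exon over exons of its partner. On the minus strand, the gene had 10.4, 19.9 and 11.2 FPKM in salt-drought and 7.50, 34.9 and 34.6 FPKM in drought, against 156, 315 and 203 FPKM in control. On the plus strand, the gene had 8.94, 6.38 and 6.65 FPKM in salt-drought and 5.69, 7.18 and 4.96 FPKM in drought, against 9.18, 8.80 and 7.33 FPKM in control. The minus-strand gene lay below all controls in every stressed library, and the plus-strand gene overlapped its controls in salt-drought and lay below them in drought. In salt-drought the minus-strand gene fell by 3.92 log2 units (limma adjusted p = 0.000111), the change of the plus-strand gene was -0.19 ± 0.20 (SE, limma adjusted p = 0.52), and the balance changed by 3.73 ± 0.65 (SE, limma adjusted p = 0.000322). In drought the balance changed by 2.84 ± 0.65 (SE, limma adjusted p = 0.0144), a call lost without library 1 of drought (limma adjusted p = 0.0875), library 2 of control (limma adjusted p = 0.0765) or library 3 of control (limma adjusted p = 0.0516).

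Opposite changes under underground salt-drought were few. The nested pair Glyur000316s00018288 on the plus strand (Scaffold00316, 170738 to 192128) and Glyur000316s00018289 on the minus strand (179306 to 180343), with the minus-strand gene inside an intron, had the largest in salt-drought. Its plus-strand gene had 101, 47.8 and 81.4 FPKM in salt-drought, against 44.4, 43.2 and 37.0 FPKM in control, and its minus-strand gene 118, 139 and 107 FPKM in salt-drought, against 166, 156 and 191 FPKM in control. Neither gene's groups overlapped. The changes were 0.81 ± 0.25 (SE, limma adjusted p = 0.0202) and -0.50 ± 0.15 (SE, limma adjusted p = 0.017), and the balance changed by 1.31 ± 0.33 (SE, limma adjusted p = 0.00571). Both gene calls were lost without library 1 or 3 of salt-drought or library 3 of control, with limma adjusted p up to 0.122. Fitted on the 2 groups alone, the plus-strand call was lost too (limma adjusted p = 0.0713).

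Underground salt called 926 of 4706 pair genes (19.7%, against 18% of all genes), 457 higher (9.71%, against 9.64%) and 469 lower (9.97%, against 8.35%). Both partners were called in the same direction in 84 pairs (8.29%, against 2.89% of all overlapping and adjacent pairs) and in opposite directions in 1 (0.0987%, against 1.59%). The balance changed in 104 of 1013 pairs (10.3%), against 18.1%. The gene count was 564 and the balance count 50 without library 3 of control, while 69 balances were called without library 3 of salt and 58 without library 1 of control. A fit of only the 2 groups called 376 genes and 34 balances.

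The single opposite pair was convergent, Glyur000080s00008687 on the plus strand (Scaffold00080, 198721 to 203851) and Glyur000080s00008688 on the minus strand (201701 to 206624), with 1564 bases of exon in common and UTRs on both genes. The plus-strand gene had 14.3, 14.6 and 15.8 FPKM under salt, against 19.5, 17.8 and 18.1 FPKM in control. The minus-strand gene had 22.0, 25.4 and 23.0 FPKM under salt, against 13.9, 14.9 and 13.4 FPKM in control. The groups did not overlap in either gene, and the minus-strand gene was the higher partner in all salt libraries, the plus-strand gene in all controls. The changes were -0.29 ± 0.07 (SE, limma adjusted p = 0.00768) and 0.70 ± 0.10 (SE, limma adjusted p = 8.42e-05), with a balance change of -0.99 ± 0.13 (SE, limma adjusted p = 5.62e-05). Fitted on the 2 groups alone, the fall of the plus-strand gene had a limma adjusted p = 0.122.

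Underground drought called 200 of 4706 pair genes (4.25%, against 3.44% of all genes), 65 higher (1.38%, against 1.21%) and 135 lower (2.87%, against 2.23%). Both partners moved in the same direction in 22 pairs (2.17%, against 0.32% of all overlapping and adjacent pairs) and in opposite directions in 0 (limma, against 0.0261%; 4 pairs at an unadjusted p under 0.05). A changed balance was found in 24 of 1013 pairs (2.37%), against 4.25%. Without library 1 of drought 133 genes were called, without library 2 of drought 132, without library 2 of control 120 and without library 3 of control 126. Without library 3 of drought 15 balances were called, without library 2 of control 13 and without library 3 of control 15. A fit of only the 2 groups called 133 genes.

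The pair with the largest joint fall under underground drought was divergent, Glyur000749s00022599 on the plus strand (Scaffold00749, 76625 to 77183) and Glyur000749s00022598 on the minus strand (75845 to 76822). Levels of the plus-strand gene were 42.8, 44.6 and 49.7 FPKM in drought, against 243, 363 and 260.0 FPKM in control. Levels of the minus-strand gene were 52.5, 72.9 and 72.3 FPKM in drought, against 301, 480.0 and 382 FPKM in control. Every drought library lay below every control library in both genes. The falls were nearly equal, -2.61 ± 0.29 (SE, limma adjusted p = 2.52e-05) and -2.53 ± 0.31 (SE, limma adjusted p = 6.44e-05), and the balance change was -0.08 ± 0.15 (SE, limma adjusted p = 0.858). The 2 genes had an r of 0.99 over the 16 groups.

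Silicate was compared in salt-drought aerial parts. There 399 of 4526 pair genes (8.82%, against 9.24% of all genes) differed between salt-drought with silicate and salt-drought, 257 higher (5.68%, against 5.81%) and 142 lower (3.14%, against 3.43%). Both partners moved in the same direction in 14 pairs (1.46%, against 0.707% of all overlapping and adjacent pairs) and in opposite directions in 1 (0.104%, against 0.485%). The balance changed in 98 of 961 pairs (10.2%), against 11.7%. These counts depend on single libraries: without library 2 of salt-drought with silicate 90 genes and 30 balances were called, without its library 3 238 genes, and without library 3 of salt-drought 71 genes and 22 balances. Without library 2 and the aerial drought library 3, both with high underground markers, 103 genes and 34 balances were called, and a fit of only the 2 groups called 4 genes and 11 balances.

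The largest balance change with silicate was found in the convergent pair Glyur000334s00019199 on the plus strand (Scaffold00334, 142296 to 149720) and Glyur000334s00019200 on the minus strand (146064 to 156316). On the plus strand, the gene had 6.32, 165 and 21.3 FPKM in salt-drought with silicate, against 0.166, 0.416 and 0.121 FPKM in salt-drought. On the minus strand, the gene had 11.6, 21.0 and 10.9 FPKM with silicate, against 10.5, 10.1 and 9.95 FPKM without. The plus-strand gene was higher in all 3 silicate libraries, most in library 2. This gene is abundant underground, at 668, 975 and 1544 FPKM (lowest, median and highest of 24 libraries). The median underground marker in the 3 silicate libraries stood at 1.04%, 14.7% and 2.42% of its mean over all underground libraries. In the 3 libraries without silicate it stood at 0.0698%, 0.185% and 0.111%. The balance changed by 4.20 ± 0.89 (SE, limma adjusted p = 0.00817), and by 3.25 without library 2 (limma adjusted p = 0.0576). Fitted on the 2 groups alone it had a limma adjusted p = 0.0516. The part of underground material in this change was not tested.

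The single pair called in opposite directions with silicate was convergent, Glyur000042s00005076 on the plus strand (Scaffold00042, 233431 to 237924) and Glyur000042s00005078 on the minus strand (236602 to 242116). The plus-strand gene had 33.5, 34.4 and 42.1 FPKM with silicate, against 45.9, 54.3 and 68.1 FPKM without. The minus-strand gene had 7.39, 7.52 and 6.78 FPKM with silicate, against 6.39, 4.94 and 3.90 FPKM without. The groups did not overlap in either gene. The changes were -0.59 ± 0.14 (SE, limma adjusted p = 0.0181) and 0.46 ± 0.14 (SE, limma adjusted p = 0.0464). The minus-strand call was lost in 10 of 12 alternatives, and with the replicate block it had a limma adjusted p = 0.0642; the plus-strand call was lost in 4, among them the fit of the 2 groups alone (limma adjusted p = 0.112).

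Across these 8 comparisons the changes of the 2 partners were correlated at 0.45 to 0.66 over the overlapping pairs, and at 0.083 to 0.20 over neighbours within 1000 bases. Each is a correlation across pairs of 1 comparison, pairs that share a gene are not independent, and several comparisons share controls. The salt-drought response of the balance differed between underground and aerial parts in 113 of 1205 pairs (9.38%), against 16.6% of all overlapping and adjacent pairs. The count was 74 without library 1 of underground salt-drought and 65 without library 3 of aerial salt-drought.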

How the data were processed

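The authors deposited FPKM values of 38463 gene rows in 48 libraries and a gene annotation, whose start and end coordinates are 1-based and were used as deposited. Per the submitters' processing notes, TopHat2 and Cufflinks were used; versions, strand handling and the genome build are not given in the sources used here. Protocols in the labels describe nanopore and Illumina libraries, and which gave the FPKM is not stated. The 4018 rows of new genes have no coordinates and form no pairs.

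Pairs were found with Python 3.11.15. FPKM values are no counts, and whole reads were not recovered: 39.1 to 63.2% of low values lay within 0.1 of a whole multiple, where chance gives 20%. Depth is therefore unknown. Values were tested as log2(FPKM + 1), which understates changes of low genes, with limma 3.58.1 in R 4.3.3 (trend and robust options, group means only, 24 libraries of a part or all 48), where a gene reached 1 FPKM in 3 libraries or more, with Benjamini-Hochberg adjustment over all 23389 aerial, 24478 underground or 26335 genes, or over all 14012, 15335 or 16865 overlapping and adjacent pairs. The script was tested on simulated data. Group means entered Pearson's r.

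Libraries with the same replicate number deviated together between underground and aerial controls (r 0.236 to 0.325 over 26335 genes), where the numbers pair the libraries by this check. In the other 7 comparisons they did not pair them by this check, and r was highest in underground salt-drought (-0.0453 to 0.147). Alternatives were another pseudocount, no filter, rescaling, 2 groups only, the replicate block, leaving out libraries, Spearman's rho and pairs by exon overlap. The members, lists and tests were chosen with earlier results of these data known. Named pairs have both partners at a group mean of at least 5 FPKM somewhere. They are the 3 pairs with the highest lower partner, and the 2 with the highest and the 2 with the lowest r. In each comparison they are the pair with the largest called balance change among those whose balances did not overlap between the groups, and the pair with the largest opposite (otherwise joint) change. The last are the 2 with the largest span of balance among pairs that changed order. Sequences and gene names were not used here.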

Additional observations from a re-analysis of the deposited data

Results flagged for a closer look

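The salt-drought response of the balance differed between underground and aerial parts in 3 named pairs by a limma test of the difference itself over all 48 libraries. The Scaffold00015 and Scaffold00316 pairs were named for their change in underground salt-drought, which is part of this difference, so the choice favours a call. The Scaffold00080 pair was named for its change in underground salt against the same underground control libraries. Its choice is therefore not independent of this difference either. In the Scaffold00015 pair the response underground minus that in aerial parts was 2.82 ± 0.75 (SE, limma adjusted p = 0.00855), where its minus-strand gene averaged 13.8 ± 5.28 FPKM in underground salt-drought, against 225 ± 81.8 FPKM in underground control, and 74.3 ± 28.0 FPKM in aerial salt-drought, against 347 ± 155 FPKM in aerial control (SD, n = 3 each). In the Scaffold00316 pair the difference was 2.74 ± 0.43 (SE, limma adjusted p = 5.54e-05). Its plus-strand gene averaged 76.8 ± 27.1 FPKM in underground salt-drought, against 41.5 ± 3.99 FPKM in underground control, and 12.0 ± 4.49 FPKM in aerial salt-drought, against 39.1 ± 6.06 FPKM in aerial control (SD, n = 3 each). In the Scaffold00080 pair the difference was -0.92 ± 0.28 (SE, limma adjusted p = 0.0191), and it was -0.81 without library 1 of underground salt-drought (limma adjusted p = 0.0634). Its plus-strand gene had 13.5, 14.8 and 15.2 FPKM in underground salt-drought, against 19.5, 17.8 and 18.1 FPKM in underground control, and 16.2, 17.2 and 14.5 FPKM in aerial salt-drought, against 13.2, 12.7 and 11.1 FPKM in aerial control. Both partners enter each of these differences, while levels of a single partner are given here for each pair.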

How the results depend on the processing

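No named change and no median r changed sign under the alternatives run, though with rescaling the calls of underground salt-drought were mostly lower (556 higher, 730 lower). The replicate block moved no count of calls by over 1.5 times (between parts 3147 genes and 515 balances with the block, against 3148 and 514), and of the named calls it ended the one of the minus-strand gene of the Scaffold00042 pair (adjusted p = 0.0642). In the comparisons other than that between parts, the numbers did not pair the libraries by the check used. What else same-numbered libraries share is not stated. Fitted on only the 2 groups compared, member gene counts were 16 in aerial drought, 43 in aerial salt, 4 with silicate, 133 in underground drought and 376 in underground salt, and balance counts were 1, 5 and 11 in the 3 aerial comparisons and 34 in underground salt. With no filter, which tests more pairs, balances called numbered 73, 140, 698, 216, 66, 342, 535 and 1798 in aerial drought, salt, salt-drought and silicate, underground drought, salt and salt-drought and between parts. The median r was then 0.44 (aerial 0.30, underground 0.30), with 1629 pairs at 0.5 or above, 158 at -0.5 or below and 3021 with the same higher partner. With log2(FPKM + 0.1), 33 balances were called in aerial salt and 81 in the difference of salt-drought responses between parts. Without the 2 libraries with the highest underground markers, silicate gave 103 genes and 34 balances and the aerial median r was 0.46, as it was without the 4 libraries with the most transcripts of the other part, an alternative added after seeing the data. Spearman's rho had medians of 0.73, 0.45 aerial and 0.45 underground. Pairs with exon overlap had 0.78 and 0.53 underground. Those without, added after seeing the data, had 0.53, 0.33 aerial and 0.29 underground, with 55 pairs at 0.5 or above, 11 at -0.5 or below and 74 with the same higher partner.

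Leaving out 1 library at a time gave 73 to 150 genes and 8 to 16 balances in aerial drought, 170 to 370 and 20 to 51 in aerial salt, 955 to 1243 and 153 to 228 in aerial salt-drought, 71 to 416 and 22 to 90 with silicate, 120 to 177 and 13 to 18 in underground drought, 564 to 856 and 50 to 112 in underground salt, 968 to 1273 and 85 to 112 in underground salt-drought, 2928 to 2998 and 469 to 490 between parts, and 65 to 120 balances in the difference of salt-drought responses. Without all libraries of 1 replicate number, the median r was 0.72 to 0.73 (aerial 0.47 to 0.51, underground 0.46 to 0.50), with 789 to 803 pairs at 0.5 or above, 90 to 98 at -0.5 or below and 895 to 905 with the same higher partner. The causes were not tested. Of the named genes and balances, 33 values under the alternatives lost their call and 291 kept it. Depth is unknown, so the lowest partners, many near 0, carry an unknown counting error.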
